A study of Mus musculus with 50 samples.

Results

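Livers of young male mice were ranked by their level of Mki67, a gene transcribed in dividing cells, and the 16 libraries at the top of the ranking were compared with the 16 at the bottom. The members of both groups were selected on measured Mki67 alone. The comparison uses 32 of the 50 libraries, and the other 18 form a middle group. Mki67 was left out of every test, since its values made the groups.

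The mice came from a cross between F1 offspring of B6.A4 and F1 offspring of B6.A6, chromosome substitution strains that had each first been bred to C57BL/6J. Chromosomes 4 and 6 can therefore carry stretches of A/J origin, and the rest of the genome was C57BL/6J in every animal. The study used them to map loci that act on blood traits, metabolism and liver expression. By the paper the offspring (N2) were 5 weeks old and fasted overnight before the caudate lobe was taken, while the labels say F2 and adult. All libraries are labelled male, none had a treatment, and the genotypes were not used here.

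Each library is one column of normalized signal, made by the authors from reads counted per gene. Whole reads were recovered from the columns. The 50 libraries held 9430126 to 24355042 reads on genes (median 10791083), from 10133115 to 15665161 in the high group and from 9430126 to 24355042 in the low group. A single read was worth 0.0317 to 0.0864 units of signal, depending on the library. By library number, 7 of the high and 9 of the low libraries lay between 1 and 30 (the first set) and 9 of the high and 7 of the low lay between 31 and 59 (the second set). Of the 4 libraries that share an animal number with another, 0 were in the high or low group, so the compared libraries carry 32 different animal numbers. The labelled tissue was read against 8 hepatocyte markers: all 8 were in the table, and Alb made 73.3% of their summed signal.

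Some libraries stood apart. Library 24, rank 2 by Mki67, had the highest Cyp2b9 (193), H19 (14.6) and Lpl (141) of all 50. Library 15, rank 1, had the highest Top2a (3.20) and Cdc20 (3.27) and the lowest Mup3 (1340). Library 44, rank 50, had the lowest slope of signal on transcript length (-0.24, in log2 units per log2 of length). For single genes whose call was lost in some fits that left out a library, the number of fits that kept it is given below.

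Hepatocytes divide in the growing animal and become quiescent as the liver reaches its adult size, while the other cells of the liver keep a slower turnover. Dividing cells switch on their genes in waves, and E2F factors drive genes for DNA replication at the start of S phase. Genes for chromosome condensation, the spindle and cell division follow in G2 and mitosis under the DREAM and MMB complexes and FOXM1. These act through CHR elements, in promoters that often also hold CCAAT boxes. Mki67 encodes the protein that coats mitotic chromosomes and belongs to the later wave.

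The promoters of Mki67, of the markers Top2a and Cdk1, and of Cenpa and Mcm10, list members described below, are shown because the later and the earlier wave differ in the motifs they carry. Each window runs from 250 bases before to 50 after the start of the gene by RefSeq, 300 bases in all, from RefSeq GRCm38.p6, written 5′ to 3′ on the gene's strand. Capitals mark the CHR element TTTGAA and the CCAAT box CCAAT on either strand. The E2F sites TTTCCCGC and TTTGGCGC were searched too and had no match in these windows. The windows are chr7:135716330-135716629 for Mki67, chr11:99024140-99024439 for Top2a and chr10:69352863-69353162 for Cdk1, all on the minus strand, chr5:30666636-30666935 on the plus strand for Cenpa and chr2:5012742-5013041 on the minus strand for Mcm10.
Mki67: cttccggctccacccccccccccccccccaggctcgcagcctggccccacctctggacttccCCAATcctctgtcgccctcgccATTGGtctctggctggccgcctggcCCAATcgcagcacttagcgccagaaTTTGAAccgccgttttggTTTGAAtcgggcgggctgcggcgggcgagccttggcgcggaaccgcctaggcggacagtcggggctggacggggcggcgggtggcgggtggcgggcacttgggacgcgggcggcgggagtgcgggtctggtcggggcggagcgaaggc
Top2a: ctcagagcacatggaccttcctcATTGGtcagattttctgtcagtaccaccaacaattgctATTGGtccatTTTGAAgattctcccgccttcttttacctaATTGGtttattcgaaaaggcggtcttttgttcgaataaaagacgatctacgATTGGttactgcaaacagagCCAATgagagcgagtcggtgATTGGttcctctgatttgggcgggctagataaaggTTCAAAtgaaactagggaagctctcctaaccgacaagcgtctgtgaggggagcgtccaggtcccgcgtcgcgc
Cdk1: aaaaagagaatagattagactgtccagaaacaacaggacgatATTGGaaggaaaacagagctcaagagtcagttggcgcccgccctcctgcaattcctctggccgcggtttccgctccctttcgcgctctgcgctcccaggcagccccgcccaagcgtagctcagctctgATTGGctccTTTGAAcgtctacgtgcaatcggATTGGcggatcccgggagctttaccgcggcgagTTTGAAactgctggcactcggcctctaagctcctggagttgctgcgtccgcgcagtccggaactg
Cenpa: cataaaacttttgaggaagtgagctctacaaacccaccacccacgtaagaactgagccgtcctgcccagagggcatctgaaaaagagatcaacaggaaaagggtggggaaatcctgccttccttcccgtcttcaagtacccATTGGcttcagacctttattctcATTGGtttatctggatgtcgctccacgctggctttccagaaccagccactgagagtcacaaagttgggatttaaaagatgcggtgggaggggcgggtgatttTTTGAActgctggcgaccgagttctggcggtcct
Mcm10: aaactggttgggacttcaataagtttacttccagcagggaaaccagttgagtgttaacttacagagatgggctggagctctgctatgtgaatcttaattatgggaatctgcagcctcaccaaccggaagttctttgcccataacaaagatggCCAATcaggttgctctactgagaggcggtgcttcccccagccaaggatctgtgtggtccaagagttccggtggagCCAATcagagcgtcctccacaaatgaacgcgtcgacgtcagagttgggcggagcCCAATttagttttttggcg

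Mki67 held 2 CHR elements and 3 CCAAT boxes, Top2a 2 and 6, Cdk1 2 and 3, and Cenpa 1 and 2, whereas Mcm10 held 0 CHR elements and 3 CCAAT boxes. Over all 27025 promoters of the reference, 20.2% held TTTGAA, 41.1% held CCAAT, 8.97% held both and 1.80% held an E2F site. Of the 9094 genes tested that were matched to a promoter, 14.35% held TTTGAA, 42.84% held CCAAT and 3.33% an E2F site, and of the 146 matched among those called higher 18.5% held TTTGAA. Of the 37 mitosis genes in the table, 29 were matched to a promoter, and of those 18 held TTTGAA, 24 held CCAAT and 17 held both. Of the 49 replication genes, 38 were matched, and 6 held TTTGAA, 21 held CCAAT and 11 an E2F site. A match of these letters is a description of the window, and it does not show that a factor binds there.

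Mki67 lies at chr7:135689784-135716361 in the GENCODE annotation, whose start differs from that of RefSeq used for the promoter, and its longest transcript has 10061 bases, against a median of 3075 over the genes tested. In the high group its signal was lowest at 1.93, had a median of 2.34 and reached 4.55, with a mean of 2.60 ± 0.724 (SD, n = 16). In the low group it ran from 0.573 over a median of 0.818 to 1.23, with a mean of 0.889 ± 0.236 (SD, n = 16). These values are how the groups were made and carry no test. Just inside the high group lay library 16 at 1.93, and just outside it library 6 at 1.89. Just inside the low group lay library 43 at 1.23, and just outside it library 31 at 1.25. The values form a continuous series with no gap at either border.

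**Figure D1:**
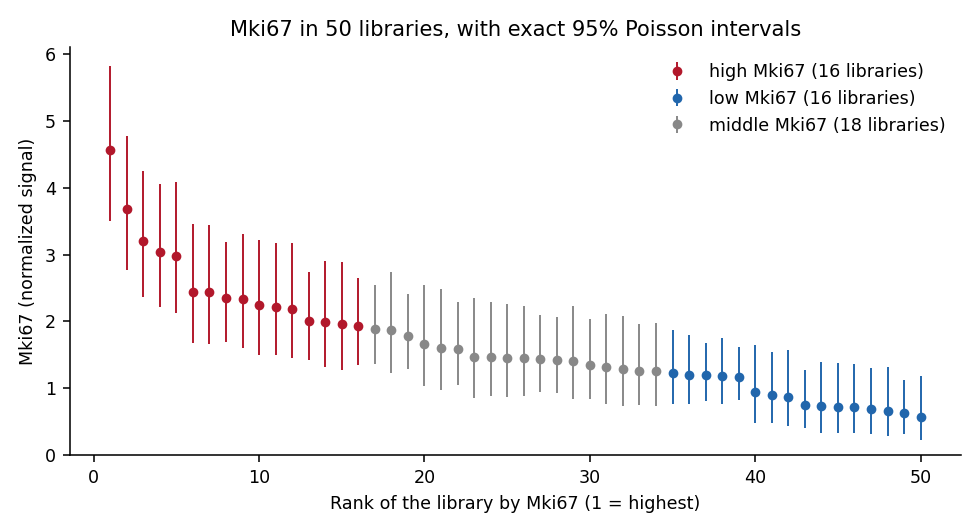
Normalized signal of Mki67 in each of the 50 libraries against its rank, with exact 95% Poisson intervals of the read count. The intervals of the lower high libraries (such as library 16, 1.36 to 2.65) overlap those of the upper low libraries (library 43, 0.761 to 1.88).

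Mki67 rested on few reads: 25 to 64 in the high libraries (median 34.5) and 7 to 37 in the low ones (median 11.5). Counting error alone accounts for 16.4% of its variance over the 50 libraries. The intervals in the plot of Mki67 by rank cover counting error only, while the p-values below measure the spread between samples. In bulk liver, fewer dividing cells and less RNA per dividing cell cannot be told apart.

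The signal of 11431 genes averaged 1 or more over the 50 libraries, and 11430 of them were tested without Mki67 (limma on log2 of the signal plus 0.5, two-sided, Benjamini-Hochberg over all genes). At an adjusted p under 0.05, 519 genes were called, 4.54% of those tested. Of these, 187 were higher (1.64%) and 332 lower (2.90%) in the high Mki67 libraries, and 2667 had an unadjusted p under 0.05. In none of the 519 did the ranges of the groups separate (0 genes without overlap). The differences were small: the genes called higher had a median log2 difference of 0.32 and at most 0.84, and those called lower a median of -0.23 and at the extreme -0.69.

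The calls followed transcript length. The median length was 5393 bases among the genes called higher and 1212 among those called lower, against 3075 over all. Of the 2285 genes with the shortest transcripts, 0.175% were called higher and 10.6% lower. Of the 2285 with the longest, 4.51% were called higher and 0.131% lower. Across genes, which are not independent replicates, Spearman's rank correlation of the log2 difference with length was 0.50. The libraries differed in the same respect: the slope of signal on length averaged 0.03 ± 0.06 (SD, n = 16) in the high and -0.04 ± 0.08 (SD, n = 16) in the low libraries.

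A correction that brings each library to the same median in 20 bins of length, chosen after seeing the data, took this correlation to -0.01. With it 68 of 11423 genes were called (0.595%), 29 higher (0.254%) and 39 lower (0.341%), and 1902 had an unadjusted p under 0.05. Of the 519 genes, 62 remained called in the same direction, 25 higher and 37 lower. The direction held for 187 of the 187 higher and 330 of the 332 lower genes, with smaller differences (medians 0.25 and -0.14). What sets the length slope of a library was not tested, and Mki67, itself a long transcript, is among the genes it can move. When the libraries were ranked again on Mki67 after the correction, 14 high and 13 low libraries kept their group, and 451 genes were called, 250 higher and 201 lower. For the genes and lists called in the main comparison, what the correction left of the calls is also given below.

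**Figure D2:**
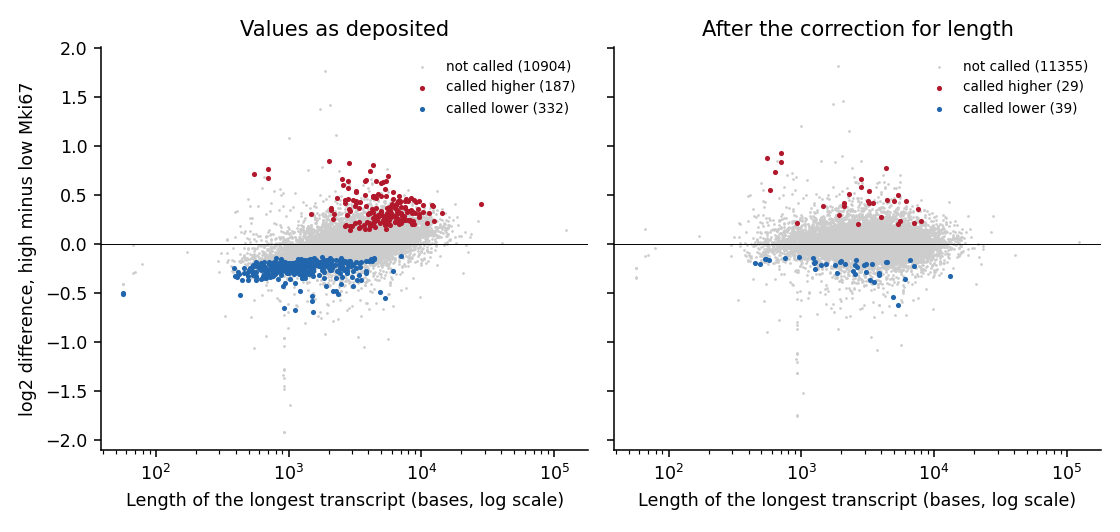
Difference between the high and low Mki67 libraries (log2) for each tested gene against the length of its longest transcript (bases, log scale), with the signal as deposited on the left and after the correction for length on the right, where red genes were called higher and blue genes lower. As deposited, the genes called higher lie among long transcripts (median 5393 bases) and those called lower among short ones (median 1212).

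The count also depended on single libraries. Leaving out each of the 32 in turn called from 1.73% of the genes (without library 4) to 8.13% (without library 11). The share moved by over 1.5 times for 15 of the 32. It was 2.76% without library 13, 2.84% without library 15, 2.83% without library 27, 1.83% without library 35, 2.84% without library 37, 1.74% without library 44, 2.21% without library 45, 2.87% without library 46, 2.06% without library 47, 2.99% without library 49, 2.94% without library 50 and 2.27% without library 57, and it was 7.44% without library 23. After the correction for length the range was 4 calls (without library 57) to 148 (without library 11). The 24 genes named below for the smallest p-values were called in each of the 32 fits that left out a library, with the signal as deposited. This does not hold after the correction, where most of them are not called without library 57 (4 calls in all), and the corrected call of each gene was not followed through these fits.

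Mitosis genes came first among the lists, as the genes nearest in role to Mki67. Of 73 listed, 37 were in the table and 36 were not, Plk1, Aurkb, Bub1 and Foxm1 among the latter, and of the 37, 19 reached a mean signal of 1 and 18 did not. Of the 19 tested, 3 were called higher and 0 lower, 15 lay above 0, and the median log2 difference was 0.21, against -0.003 over all genes tested. Those 19 include genes that pass the filter partly through the high libraries, so the list was also read with no filter on low signal. The authors had already removed genes with low counts. The 37 may therefore carry a like selection, which this reading cannot remove. With no filter 486 of 12179 genes were called (3.99%), 178 higher (1.46%) and 308 lower (2.53%), 2785 at an unadjusted p under 0.05. There 10 of the 37 mitosis genes were called higher and 0 lower, 32 lay above 0, and the median was 0.30. Over the 32 fits without a library, 7 (without library 4) to 13 of them were called and the median ran from 0.28 to 0.33.

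The correction for length lowered the calls of this list, too. With no filter it left 76 of 12172 genes called (0.624%), 34 higher (0.279%) and 42 lower (0.345%), 2029 at an unadjusted p under 0.05. Of the 37 mitosis genes 6 were called higher, against 10 before it, while 33 lay above 0 and the median was 0.28. Of the 19 tested with the filter 2 were called after the correction, and with the length slope as a covariate 0 were called. The count was also 0 in either library set, when ranked by Top2a or by Top2a and Cdk1, and with the correction and animal number together. It was 7 with Mki67 as a regressor over the 50 libraries, 4 when ranked again on corrected Mki67 and 1 with a mean signal of at least 5. Among the 18 genes below the filter, 17 lay above 0 (median 0.43 as deposited), and 8 were called with no filter: Top2a, Ccna2, Ccnb2, Cdc20, Ckap2l, Ect2, Tpx2 and Ube2c. All but Top2a are named after their values were seen, and they rest on few reads.

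Top2a encodes the topoisomerase that untangles chromosomes before they part. Its signal ran from 0.592 over 1.26 to 3.20 in the high libraries and from 0.160 over 0.735 to 1.14 in the low ones. Most high libraries lay above most low libraries (14 of 16 above the low median), but the ranges overlapped. With no filter the log2 difference was 0.55 ± 0.14 (SE), adjusted p 0.0273, and after the correction for length 0.49 with an adjusted p of 0.102. It was called in 31 of the 32 fits without a library (adjusted p 0.0530 without library 4, uncorrected).

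Cdc20, which switches on the ligase that ends mitosis, had 0.310, 1.07 and 3.27 (lowest, median and highest) in the high libraries. In the low libraries it had 0.157, 0.454 and 1.33. The groups overlapped, with 14 of 16 high libraries above the low median. Its difference was 0.74 ± 0.16 (SE) with an adjusted p of 0.0114, and after the correction 0.79 with an adjusted p of 0.0199. The gene overlaps Elovl1 on the other strand, and the strand setting of the counting is not given in the sources used here.

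Tpx2, which builds spindle microtubules around the chromosomes, had 0.370, 0.821 and 2.28 in the high and 0.0837, 0.320 and 0.953 in the low libraries. All 16 high libraries lay above the low median and the ranges overlapped. The difference was 0.68 ± 0.14 (SE), adjusted p 0.0114, and 0.64 after the correction, adjusted p 0.0350. Both Cdc20 and Tpx2 were called in each of the 32 fits without a library, as were Ccna2, Ckap2l and Ect2, while Ccnb2 was called in 10 and Ube2c in 16 of them.

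Cdk1 encodes the kinase that drives entry into mitosis, and it was one of the markers given for dividing cells. It had 1.18, 2.23 and 3.63 in the high libraries and 1.31, 1.58 and 3.07 in the low ones. The groups shared most of their range, and the lowest library of all was a high one. Its difference of 0.28 ± 0.11 (SE) had an adjusted p of 0.125, with 15 of 16 high libraries above the low median, and it was not called. The markers thus go along with the ranking for Top2a with no filter, and for Cdk1 in direction only.

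Of the 3 mitosis genes called with the filter, Incenp, which holds the Aurora B complex to chromosomes, had 1.18, 1.77 and 2.42 in the high and 0.471, 0.978 and 1.84 in the low libraries. All high libraries were above the low median, and a few low libraries reached into the high range. The difference was 0.54 ± 0.12 (SE), adjusted p 0.0112, and 0.54 after the correction, adjusted p 0.0297. It was called in all 32 fits without a library. Cenpa, the histone H3 variant of centromeres whose promoter is shown above, had 1.73, 3.21 and 4.84 in the high and 1.73, 2.45 and 3.67 in the low libraries. Here the groups began at the same level, and 15 of 16 high libraries were above the low median. The difference was 0.30 ± 0.09 (SE) with an adjusted p of 0.0490, and 0.39 after the correction with an adjusted p of 0.0348. It was called in only 7 of the 32 fits without a library, and its adjusted p reached 0.0771 without library 4. With animal number as a covariate Cenpa was not called, and 2 of the mitosis genes tested with the filter were. A pseudocount of 0.1 also left 2 calls.

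Smc4, a condensin subunit, had 7.26, 9.15 and 10.7 in the high and 5.86, 7.74 and 8.44 in the low libraries. The upper high libraries lay above every low one, and 13 of 16 were above the low median. The difference was 0.26 ± 0.06 (SE), adjusted p 0.0197. After the correction it was 0.22 with an adjusted p of 0.0894 and was not called.

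Arhgap11a, a gene active in dividing cells that was in no list, was among the 12 higher genes with the smallest p-values. It had 1.11, 1.59 and 2.45 in the high and 0.684, 1.07 and 1.39 in the low libraries. All 16 high libraries were above the low median, with an overlap of the ranges. The difference was 0.49 ± 0.08 (SE), adjusted p 0.00676, and 0.44 after the correction, adjusted p 0.0271.

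**Figure D3:**
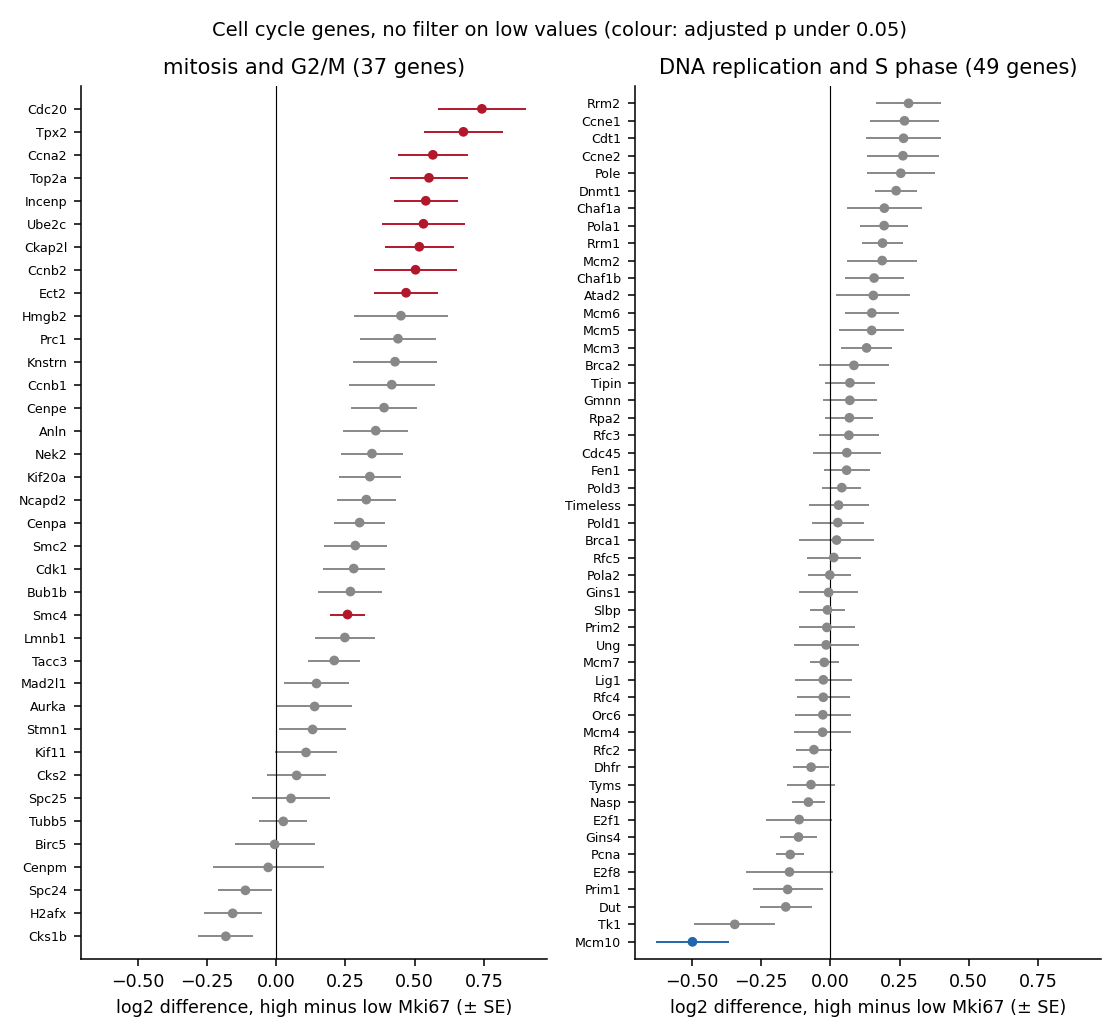
Difference between the high and low Mki67 libraries (log2, ± SE) for 37 mitosis genes on the left and 49 replication genes on the right, with no filter on low signal, where red genes were called higher and blue genes lower. The mitosis genes lie mostly right of 0 (32 of 37), and the replication genes lie on both sides (27 of 49 above 0).

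Replication and S phase genes were read next. Of 63 listed, 49 were in the table and 43 were tested. Of these 0 were called higher and 1 was called lower (limma; 4 higher and 3 lower at an unadjusted p under 0.05). Their median was -0.00, with 21 above 0, and after the correction 0.03. With no filter the median over 49 genes was 0.03, and it stayed between 0.00 and 0.05 in the 32 fits without a library. Of those 49, 27 lay above 0, and among the 6 below the filter 6 did (median 0.23), 0 of them called. The mitosis and replication lists were not tested against each other.

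Mcm10, a loader of the replication machinery, was the replication gene called lower. It had 16.3, 29.2 and 40.1 in the high and 24, 38.4 and 55.8 in the low libraries. The groups overlapped widely, with 15 of 16 high libraries below the low median. The difference was -0.50 ± 0.13 (SE), adjusted p 0.0317, and -0.55 after the correction, adjusted p 0.0442. It was called in 28 of the 32 fits without a library (adjusted p 0.0558 without library 4, uncorrected), and it was not called with animal number as a covariate (adjusted p 0.199). After the correction Mcm10 was not called without library 24 (adjusted p 0.0835) or with library set as a covariate (adjusted p 0.0519), nor was it with the length slope as a covariate (adjusted p 0.154).

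Pcna, the sliding clamp of DNA polymerases, had 11.8, 13.7 and 15.4 in the high and 11.9, 15 and 18 in the low libraries. The low libraries reached higher, and 13 of 16 high libraries were below the low median. The difference was -0.14 ± 0.05 (SE) with an adjusted p of 0.0803. Dnmt1, which copies DNA methylation onto new strands, differed the other way by 0.24 ± 0.08 (SE), adjusted p 0.0594, with 15 of 16 high libraries above the low median, and Rrm1 by 0.19 with an adjusted p of 0.118. None of these 3 was called.

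Genes for entry into the cycle and its brakes gave 0 calls among 24 tested (limma; 2 higher and 1 lower at an unadjusted p under 0.05), with a median of 0.09. Ccnd1, the cyclin of the growth-factor response, had 5.67, 9.26 and 20.7 in the high and 4.39, 7.56 and 11.6 in the low libraries, a difference of 0.32 ± 0.15 (SE) with an adjusted p of 0.181 and 12 of 16 high libraries above the low median. Of 31 histone genes 3 were in the table, and 28 were not. Hist1h2bc was called lower (-0.26, adjusted p 0.0332, 14 of 16 high libraries below the low median) but not after the correction (-0.13, adjusted p 0.273), and in 26 of the 32 fits without a library. With animal number as a covariate it was not called. The 12 members of the p53 list in the table gave 0 calls (limma; 0 of the 11 tested at an unadjusted p under 0.05), median -0.01.

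Other rankings did not return these calls. Ranked by Top2a, 9 high and 7 low libraries were the same as by Mki67, 1 library changed from low to high and 2 from high to low, and 1 gene was called, Sparcl1 (0.66, adjusted p 0.0261), with 1371 at an unadjusted p under 0.05. Ranked by the mean of Top2a and Cdk1, 10 high and 8 low libraries were shared, 1 changed from low to high and 3 from high to low. There 10 genes were called, all higher. Of these 10, named after their values were seen, 6 were also called by Mki67: Col14a1, Fstl1, Col3a1, Sparc, Postn and Col5a1, which encode proteins of the extracellular matrix. The others were Ccdc120, Sparcl1, Mamdc2 and Mmp2. Under both rankings all 24 genes named for the smallest p-values kept their direction, and 0 of them were called. Since these genes were picked by the Mki67 groups, which share libraries with both rankings, the kept direction decides nothing.

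The 12 genes called higher with the smallest p-values were Igf2bp3, AI506816, Arhgap11a, Lamc1, Plk2, Loxl2, Cdh5, Dcaf7, Cdh1, Kdm5b, Cpd and Nid1. Their differences ran from 0.20 to 0.80 and their transcripts from 2800 to 8714 bases, and after the correction for length 10 of the 12 remained called (all but Dcaf7 and Kdm5b), or 6 when library 24 was also left out. With animal number as a covariate 8 of the 12 were called.

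Igf2bp3 encodes an RNA-binding protein of the fetal and young liver that is silenced with age. It had 6.88, 10.2 and 14.4 in the high and 3.0, 5.72 and 9.89 in the low libraries, and the middle libraries had a median of 9.06. Every high library was above the low median, and only the upper low libraries reached the high range. The difference was 0.80 ± 0.13 (SE), adjusted p 0.00249, and 0.77 after the correction, adjusted p 0.00569. It overlaps Malsu1 on the other strand. It was also called with the length slope as a covariate, a fit that left 2 genes in all (0.83, adjusted p 0.0166).

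The other of those 2 was AI506816, a noncoding transcript without a known role. It had 5.88, 8.81 and 11.6 in the high and 3.13, 5.45 and 7.83 in the low libraries. All 16 high libraries were above the low median. The difference was 0.64 ± 0.10 (SE), adjusted p 0.00249, and 0.65 after the correction, adjusted p 0.00249.

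Plk2, a kinase of the Polo family that acts in early cycle phases, had 5.49, 7.88 and 13 in the high and 3.31, 5.81 and 7.88 in the low libraries. The groups overlapped, with 15 of 16 high libraries above the low median. The difference was 0.56 ± 0.10 (SE), adjusted p 0.00691, and 0.58 after the correction, adjusted p 0.0103. Among the same 12, Lamc1, Nid1 and Loxl2 encode parts or modifiers of the basement membrane and matrix (differences 0.46, 0.52 and 0.56), and Cdh1 and Cdh5 are the cadherins of epithelial and endothelial junctions (0.48 and 0.31).

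The 12 genes called lower with the smallest p-values were Baat, Apoc4, Ndufa2, Uqcr11, Prdx5, Fkbp8, Guk1, Elob, Ndufb3, Ndufs6, Tbcb and Hagh. They were short, from 445 to 1941 bases, with differences from -0.37 to -0.22, and 8 of the 12 remained called after the correction (all but Baat, Guk1, Ndufb3 and Hagh), or 3 when library 24 was also left out. All 12 were called with animal number as a covariate.

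Baat, which joins bile acids to taurine and glycine, had 181, 231 and 252 in the high and 238, 269 and 293 in the low libraries. All 16 high libraries were below the low median, and the ranges overlapped between 238 and 252. The difference was -0.22 ± 0.04 (SE), adjusted p 0.00691, and -0.16 after the correction, adjusted p 0.0650. Uqcr11, a subunit of respiratory complex III, had 65.0, 75.1 and 115 in the high and 85.8, 97.4 and 136 in the low libraries. All but 1 high library were below the low median. The difference was -0.37 ± 0.07 (SE), adjusted p 0.00987, and -0.20 after the correction, adjusted p 0.0243.

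Families of short genes were read as groups, a choice made after their values were seen and not tested. Their counts stand beside the 2.90% of all genes and the 10.6% of the 2285 shortest that were called lower as deposited, and beside 0.341% of all and 13 of the 2285 shortest after the correction. Of 37 Nduf genes (named as subunits of complex I) 21 were called lower as deposited and 4 after the correction, where their median moved from -0.20 to -0.07. Their median length was 918 bases. Of 12 Cox genes 3 were lower as deposited and 0 after it. Of 8 Uqcr genes 3 were lower and 2 after it, and of 17 Atp5 genes 4 were lower and 1 after it. Of 45 Rpl and 28 Rps genes 2 and 6 were lower, and 0 after it. Of 77 Mrp genes 7 were lower and 1 after it.

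**Figure D4:**
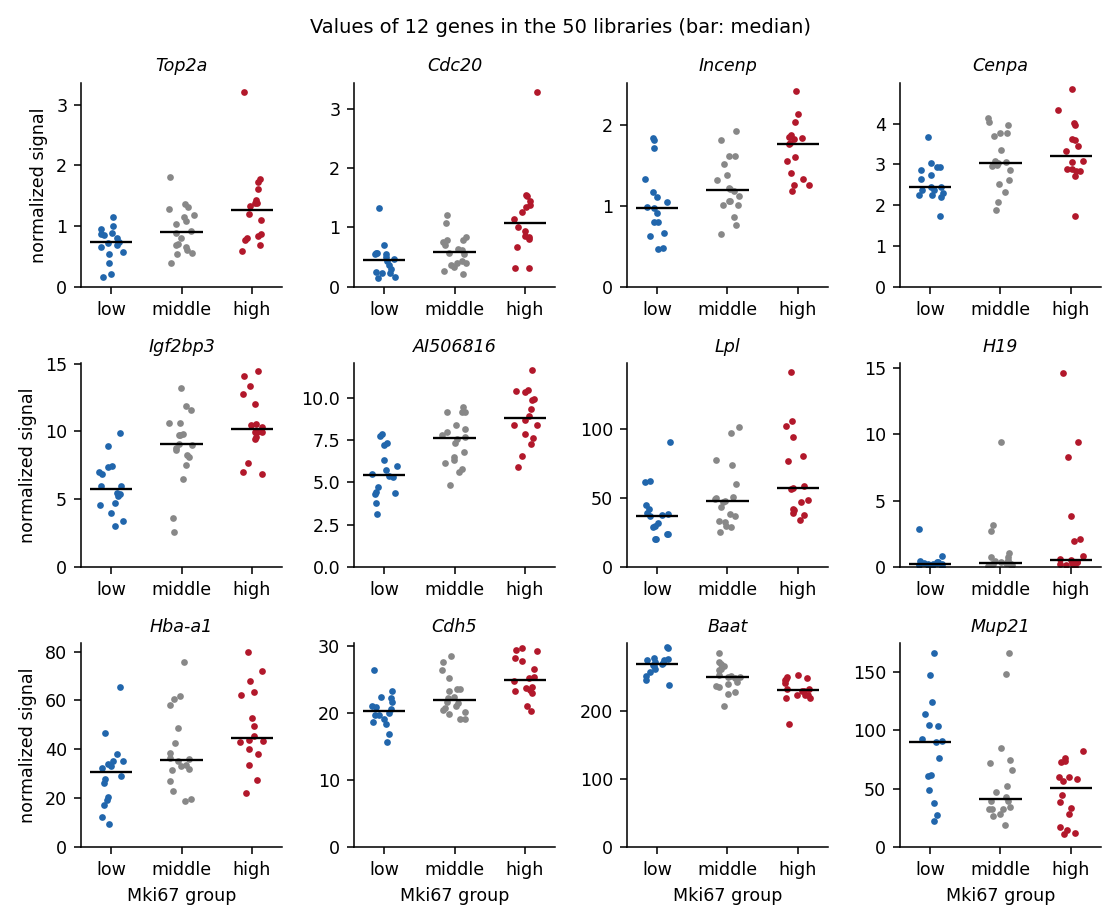
Normalized signal of 12 genes in the low (16), middle (18) and high (16) Mki67 libraries, where each point is a library and the bar is the median. The groups overlap for each gene, and for Baat the high libraries (181 to 252) lie under the low median of 269.

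Genes of the young liver lay mostly on the high side. Of 21 listed, 15 were in the table and 12 were tested. Of these 3 were called higher (Igf2bp3, Scd2 and Lpl), 10 of the 12 lay above 0, and the median was 0.41. Over all genes 1.64% were called higher, 0.254% after the correction, and 5607 of 11430 lay above 0. After the correction 1 was called (Igf2bp3) and the median was 0.37. A fit with animal number as a covariate also called Igf2bp3 alone of these 12. Other settings called more, 7 with 12 libraries per group, 5 with 20, 5 with 25, 6 when ranked again on corrected Mki67 and 8 with Mki67 as a regressor. Fewer were called in the first set (0), in the second set (2) and with the length slope as a covariate (1). Under both other rankings, and with the correction and animal number together, 0 were called. Lpl, a lipase that the liver makes around birth, had 34.2, 56.7 and 141 in the high and 20.2, 37.1 and 90.3 in the low libraries. The ranges overlapped, with 15 of 16 high libraries above the low median. The difference was 0.74 ± 0.20 (SE), adjusted p 0.0332, and 0.70 after the correction, adjusted p 0.0929. Lpl was called in 26 of the 32 fits without a library (adjusted p 0.0589 without library 4). Scd2, a desaturase of the young liver, differed by 0.49 ± 0.11 (SE), adjusted p 0.0139, with 16 of 16 high libraries above the low median, and by 0.43 after the correction, adjusted p 0.0735.

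H19, an imprinted noncoding RNA of the fetal liver, was named after its values were seen. It was near 0 in most libraries (medians 0.563 in the high and 0.240 in the low group) but high in a few. Library 24 had 14.6, library 45 had 9.44 and library 15 had 8.33, all of the high group, while the highest low library had 2.91. In the middle group library 22, rank 18, had 9.43. The group difference of 1.11 ± 0.39 (SE) had an adjusted p of 0.0901 and was not called. The same libraries had the lowest Mup3 of all 50: 1340 in library 15, 1456 in library 24, 1590 in library 22 and 1780 in library 45.

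Male-type genes, which pulsed growth hormone switches on in male liver after weaning, lay mostly below 0 with no call. Of 21 tested, 0 were called (limma; 0 higher and 8 lower at an unadjusted p under 0.05, against 1455 of all 11430 lower). Of the 21, 20 lay below 0, against 5823 of all 11430, and the median was -0.55, or -0.45 after the correction. The count of calls depended on the setting: 5 were called with 12 libraries per group, 3 with 20, 1 with 25, 10 when the libraries were ranked again on corrected Mki67 and 14 with Mki67 as a regressor over the 50 libraries. None (0) was called with animal number or the length slope as a covariate, in either library set, under edgeR, or when ranked by Top2a or by Top2a and Cdk1. Mup21, a urinary protein gene, had 11.6, 50.6 and 82.7 in the high and 22.7, 90.4 and 166 in the low libraries. All 16 high libraries lay under the low median, though the groups overlapped. The difference of -0.94 ± 0.30 (SE) had an adjusted p of 0.0564. Mup genes share much of their sequence, and the reads of single copies are hard to tell apart. Several of the 21 are Mup genes, and the lowest member was Mup12 (-1.91). Mup12 is also taken below as a tag of an allele that varies in this cross. Whether such an allele moves the list was not tested.

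Of 14 female-type genes tested, 0 were called (limma; 7 higher at an unadjusted p under 0.05, against 1212 of all 11430). Of the 14, 13 lay above 0, against 5607 of all 11430, and the median was 0.23, or 0.28 after the correction. Here 4 were called with 12 libraries per group, 3 with 20, 2 with 25, 5 when ranked again and 5 with Mki67 as a regressor, 1 in the second set and under edgeR, and 0 in the first set, with animal number or the length slope as a covariate, and under both other rankings. Growth hormone and IGF genes gave 0 calls among 19 tested (limma; 3 higher at an unadjusted p under 0.05), median 0.07, with Cish, a target of the hormone's receptor, at 0.58 (adjusted p 0.133, 10 of 16 high libraries above the low median). Whether the livers differed in maturity was not tested, since the labels give no day of birth.

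Blood and cell type markers were read in the same way. Of 20 erythroid markers 9 were in the table and 8 were tested. Of these 3 were called higher (Hba-a1, Hba-a2 and Hbb-bt), and 4 after the correction, which added Hbb-bs, against 1.64% of all genes and 0.254% after the correction. Without library 24 the count was 1 (2 after the correction), and with animal number as a covariate 0. It was also 0 with 25 libraries per group, with the length slope as a covariate, in the first set and under both other rankings. With Mki67 as a regressor it was 5, as when ranked again on corrected Mki67. The genes called as deposited and after the correction were all globins. Of the 8 tested markers, 6 lay above 0 and 2 below, with a median of 0.44, and 0.54 after the correction. Their summed signal had a median of 230 (170 to 333) in the high and 193 (130 to 281) in the low libraries, with overlap, and Hbb-bs made 28.3% of it. The defining markers Gata1, Slc4a1 and Ahsp were not in the table, so the globins cannot be assigned to a cell stage.

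Hba-a1, an alpha globin, had 22.2, 44.7 and 79.8 in the high and 9.68, 30.7 and 65.5 in the low libraries. Of 16 high libraries 14 were above the low median, and the groups overlapped widely. The difference was 0.76 ± 0.20 (SE), adjusted p 0.0295, and 0.92 after the correction, adjusted p 0.0271. Hba-a1 was called in 31 of the 32 fits without a library (adjusted p 0.0536 without library 4, uncorrected), and Hba-a2 and Hbb-bt in 23 each. Hba-a1 and Hba-a2 are near copies of each other, as are Hbb-bs and Hbb-bt, so they are not independent. Their part in the other results was not tested.

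Endothelial markers were all 16 in the table and tested. Of these 6 were called higher (Cdh5, Kdr, Stab1, Stab2, Oit3 and Eng), 15 lay above 0 and the median was 0.10, where 1.64% of all genes were called higher (0.254% after the correction) and 5607 of 11430 lay above 0. After the correction 1 was called (Cdh5) and the median was 0.07. With animal number as a covariate 1 was called, again Cdh5, and without library 24 the count was 4. Their summed signal had a median of 491 (433 to 542) in the high and 433 (406 to 499) in the low libraries, and Eng made 10.4% of it. Cdh5 had 20.4, 25 and 29.7 in the high and 15.7, 20.4 and 26.5 in the low libraries. All 16 high libraries were above the low median, and the ranges overlapped. The difference was 0.31 ± 0.06 (SE), adjusted p 0.00987, and 0.27 after the correction, adjusted p 0.0271. Eng was called in 15 and Oit3 in 18 of the 32 fits without a library.

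Over all genes 1.64% were called higher (0.254% after the correction) and 5607 of 11430 lay above 0. Of 16 Kupffer cell and macrophage markers tested, 2 were called higher (Csf1r and Mrc1), and Mrc1 after the correction, with a median of 0.15. With animal number as a covariate 0 were called, as after the correction without library 24, and Csf1r was called in 30 of the 32 fits without a library. Their summed signal had a median of 599.6 (516 to 804) in the high and 561 (473 to 730) in the low libraries. Cd5l was the most abundant at 16.8%. Of 17 stellate cell and fibroblast markers 1 was called higher, Col3a1, and 15 lay above 0, with a median of 0.15. Their sum had medians of 288 (196.1 to 360) and 242 (173 to 341), with Dcn at 25.5%. Col3a1 had 25, 42.1 and 75.8 in the high and 16.4, 26.2 and 51.6 in the low libraries. The high libraries reached further up, and the ranges overlapped. The difference was 0.69 ± 0.16 (SE), adjusted p 0.0162, and 0.63 after the correction, adjusted p 0.0724, with 15 of 16 high libraries above the low median. It was not called with animal number as a covariate.

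The summed signal of the cholangiocyte markers, of which Spp1 made 58.7%, had medians of 45.4 (33 to 52) in the high and 40.1 (33.7 to 47.7) in the low libraries. The 5 tested T, NK and B cell markers gave 0 calls (limma; 1 higher at an unadjusted p under 0.05). Cd74 made 74.7% of their sum, with medians of 49.1 (33.6 to 86.6) and 45.5 (29.1 to 64.5), and Cd3e, Cd8a and Ms4a1 were not in the table. The 3 tested neutrophil markers gave 0 calls (limma; 0 at an unadjusted p under 0.05). Lcn2 made 79.6% of their sum, with medians of 14.1 (7.88 to 41.3) and 9.83 (6.51 to 57.4), and S100a8, Elane and Mpo were not in the table. The 8 hepatocyte markers gave 0 calls (limma; 1 higher and 4 lower at an unadjusted p under 0.05), median -0.15. Their sum went the other way, with medians of 107853 (83189 to 115500) in the high and 97283 (83264 to 120831) in the low libraries, and Alb made 73.3% of it. The 27 mature hepatocyte genes gave 0 (limma; 4 higher and 5 lower), median -0.08. The part of these cells in the other results was not tested.

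**Figure D5:**
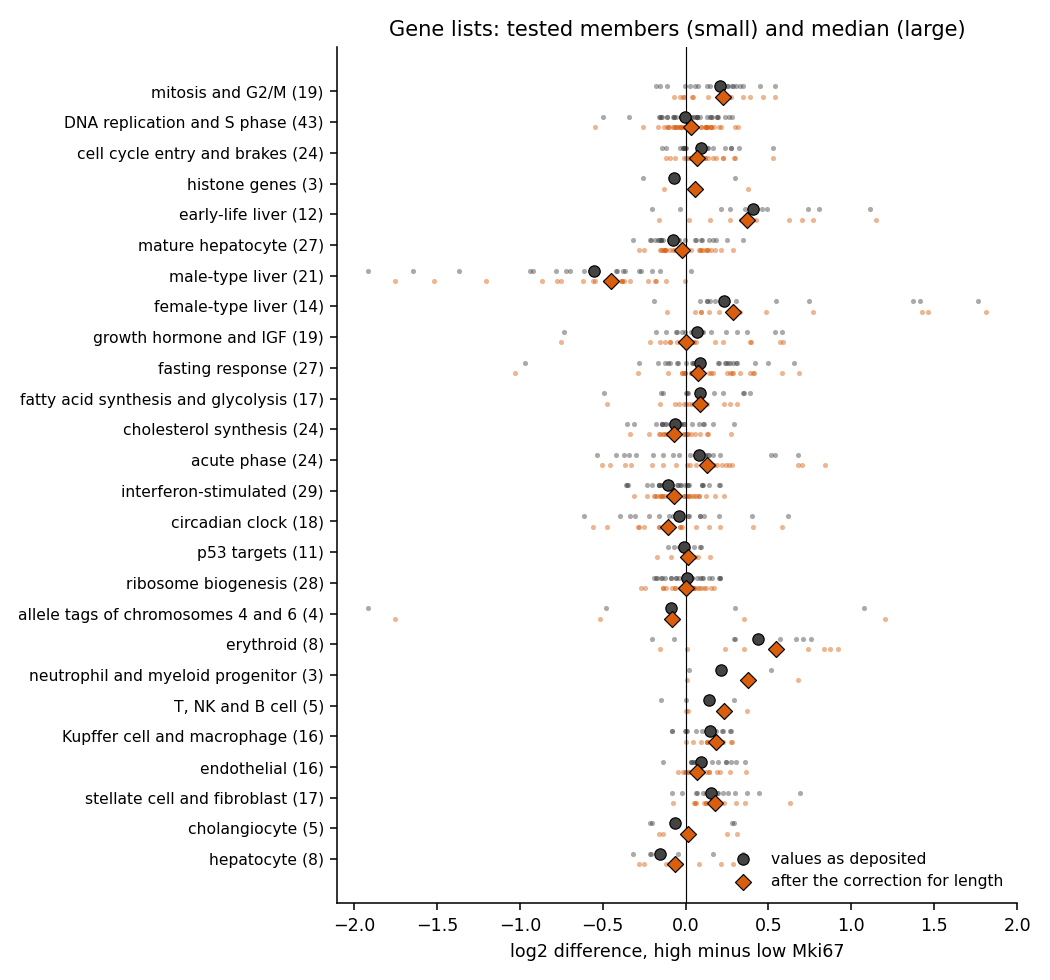
Difference between the high and low Mki67 libraries (log2) for the tested members of each gene list (number in brackets), with the signal as deposited in grey and after the correction for length in orange, where small points are genes and large ones medians. The erythroid median (0.44 and 0.54) lies furthest to the right, and the male-type median (-0.55 and -0.45) furthest to the left.

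The remaining lists, here and in the next paragraph, gave few calls. Their counts stand beside 1.64% of all genes called higher and 2.90% lower, or 0.254% and 0.341% after the correction. Of 27 fasting genes 1 was called higher, Cyp4a31, a fatty acid hydroxylase (0.66, adjusted p 0.0419, 14 of 16 high libraries above the low median), and 0 after the correction, and the median was 0.09. Of 17 genes of fatty acid synthesis and glycolysis 1 was higher, Acaca, the committing enzyme (0.35, adjusted p 0.0146, 15 of 16), and 0 after it, and the median was 0.08. Of 24 cholesterol genes 1 was lower, Tm7sf2, a sterol reductase (-0.31, adjusted p 0.0403, 14 of 16 below the low median), and 0 after it, and the median was -0.06. Of 24 acute phase genes 1 was lower, Cebpb, a transcription factor (-0.54, adjusted p 0.0332, 14 of 16), and 0 after it, and the median was 0.08. Of these 4, Acaca was called in all 32 fits without a library, Cebpb in 27, Tm7sf2 in 18 and Cyp4a31 in 14. With animal number as a covariate each of the 4 lists gave 0 calls. The fasting list also gave 0 with 12, 20 or 25 libraries per group, the acute phase list 0 with 20 or 25 and the cholesterol list 0 with 20. The list of fatty acid synthesis and glycolysis gave 2 with 20 or 25.

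Of 28 genes of ribosome biogenesis, a process that growth requires, 1 was higher (Mybbp1a, 0.21, adjusted p 0.0377, 15 of 16 high libraries above the low median) and 1 lower (Nop16, -0.19, adjusted p 0.0239, 14 of 16 below), with a median of 0.01. After the correction 0 were called, and with animal number as a covariate 0. Mybbp1a was called in 20 and Nop16 in 32 of the 32 fits without a library. Interferon-stimulated genes gave 0 calls among 29 tested (limma; 4 lower at an unadjusted p under 0.05), median -0.10. Clock genes gave 0 among 18 (limma; 2 higher and 1 lower), median -0.04.

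Properties of the libraries that the ranking did not use were compared by two-sided permutation tests with 100000 resamples, adjusted over 7 properties. Animal number averaged 226.6 ± 29 (SD, n = 16) in the high and 180.4 ± 52.4 (SD, n = 16) in the low libraries, p 0.00488, adjusted 0.0342. Of the 16 low libraries, 7 had an animal number below that of every high library. The 10 highest genes took 21.3% ± 0.912 (SD, n = 16) of the signal in the high and 20.4% ± 0.985 (SD, n = 16) in the low libraries, p 0.0138, adjusted 0.0483. Library number (p 0.0486, adjusted 0.113), reads (p 0.165, adjusted 0.290), the mitochondrial share (p 0.393, adjusted 0.550), genes at 0 (p 0.736, adjusted 0.736) and library set (Fisher's exact test, p 0.724, adjusted 0.736) did not pass the threshold. The length slope, a property added after seeing the data, differed with p 0.00172, or 0.0172 adjusted over 10 properties. The means of animal number differed by 46.2, less than the SD of the low group but more than that of the high group. The ranges of the groups overlapped in each of these properties.

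With animal number as a covariate 161 genes were called, 44 higher and 117 lower. Among the listed genes these were Incenp, Smc4, Igf2bp3, Cdh5 and Nr1h4, the last named after its values were seen. With both animal number and the correction for length 0 were called (limma; 1185 at an unadjusted p under 0.05). The labels do not say what the order of animal numbers stands for, and beyond these fits the order and the Mki67 groups cannot be told apart.

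Within the first set of libraries, 7 high against 9 low, 0 genes were called (0%; limma, 1048 at an unadjusted p under 0.05). Within the second, 9 against 7, 131 were called (1.15%; 2380 at an unadjusted p under 0.05), 52 higher and 79 lower. All 519 genes had the same sign in each set, but the sets are parts of the fit that called them. A test of the difference between the sets, as an interaction, called 0 genes (0%; limma, 734 at an unadjusted p under 0.05), so the sets were not shown to differ. The length slope averaged -0.01 (high) and -0.05 (low) in the first set and 0.07 and -0.03 in the second.

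The 18 middle libraries, which the contrast did not use, allow the same relation to be read over a narrow range of Mki67 (1.25 to 1.89). A slope on Mki67 there called 0 genes (0%; limma, 697 at an unadjusted p under 0.05). The middle group holds the 4 libraries that share an animal number with another. The slope took each library as a separate sample, so its p-values may rest on fewer independent animals than 18. Of the 519 genes, 417 had a slope of the same sign as their difference, 51 of them at an unadjusted p under 0.05. For 511 the middle mean lay between those of the high and low groups. The 519 were chosen for a difference between those groups, and other genes were not counted this way, so the 511 decide nothing. After the correction 55 of the 68 called genes had the same sign, 8 of them at an unadjusted p under 0.05.

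Since only chromosomes 4 and 6 vary in this cross, calls were counted by chromosome. Chromosome 4 had 14 higher and 27 lower among 729 genes (5.62%), chromosome 6 had 5 and 17 among 575 (3.83%), and the other chromosomes had 456 calls among 10126 (4.50%). After the correction chromosome 4 had 2 and chromosome 6 had 4 calls, where 68 of 11423 genes (0.595%) were called in all. Of 4 genes taken as tags of an allele of those chromosomes, Extl1, Mup12, Eno1b and Gm13394, 0 were called (limma; 0 at an unadjusted p under 0.05). How well these genes tag an allele was not tested here, since the genotypes were not used. Eno1b lies on chromosome 18 and Gm13394 on chromosome 2 in the annotation. Extl1 had 0.746, 2.07 and 13.3 in the high and 0.325, 8.32 and 14.2 in the low libraries. Both groups held libraries at either level, and the difference of -0.48 ± 0.45 (SE) had an adjusted p of 0.540, with 11 of 16 high libraries below the low median.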

How the data were processed

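The authors sequenced 50 libraries of mouse liver RNA, which carry 48 distinct animal numbers. The number of offspring that the paper gives for expression matches neither count. By the labels, reads were checked with FastQC, trimmed with Trim Galore, aligned with HISAT2 to GRCm38.p5, counted per gene with HTSeq 0.11.1 and normalized with edgeR. For the trimming the paper names Trimmomatic. The deposited values are a normalized signal: each column is whole reads divided by one library size (100% of values whole within 0.01), and the columns do not share a common sum. The table has 12185 rows, of which 5 hold reads assigned to no gene (17.0% to 25.3% of a column, median 21.6%); these were left out. Genes with low counts had been removed by the authors. Read totals per library were 9430126 to 24355042.

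The 16 libraries with the highest and the 16 with the lowest Mki67 were compared by limma 3.58.1 (R 4.3.3; trend, two-sided) on log2 of the signal plus 0.5, over genes with a mean of at least 1, Mki67 left out, p-values adjusted by Benjamini-Hochberg and called under 0.05. The members and the gene lists were chosen with earlier results of these data known. Length is that of the longest annotated transcript. The correction for length subtracts, per library, the median deviation in each of 20 bins. edgeR 4.0.16 (quasi-likelihood, TMM) was run on the recovered reads. Permutation tests used scipy 1.17.1 with 100000 resamples. The fit was tested on simulated data.

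Named genes are Mki67, Top2a and Cdk1, the 12 higher and 12 lower called genes with the smallest p, up to 4 tested members of each list with the smallest p, and the most abundant member of each cell type list. Of 104 named genes, 30 overlap a gene on the other strand and 4 one on the same strand; whether counting used the strand is not stated. Alternatives were other pseudocounts, filters, group sizes, covariates, normalizations, rankings, sets of libraries, and, chosen after seeing the data, corrections for length and GC content, combinations of these, and leaving out each library in turn.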

Additional observations from a re-analysis of the deposited data

How the results depend on the processing

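The main count was 519 genes (187 higher, 332 lower). It stayed within 1.5 times of this with other pseudocounts and filters, eBayes without a trend, 12, 20 or 25 libraries per group, library set or reads as covariates, median-ratio scaling, edgeR and, chosen after seeing the data, the correction for GC content. Of the 38 called genes followed through the alternatives, 0 changed sign where tested. With Mki67 as a regressor over 50 libraries 1342 genes were called (584 higher, 758 lower), with animal number as a covariate 161 (44 and 117), in the first set 0 (0 and 0), in the second set 131 (52 and 79), ranked by Top2a 1 (1 and 0) and ranked by Top2a and Cdk1 10 (10 and 0). The regressor over 50 libraries and the fit with 25 per group also hold the 4 libraries that share an animal number with another. Without library 24 the higher count was 117. Leaving out each library in turn called 1.73% to 8.13% of genes (4.54% with all), 0.542% to 3.29% higher (1.64%) and 1.13% to 4.84% lower (2.90%); with 1 library fewer the cause was not tested.

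The alternatives on transcript length were chosen after seeing the data. The correction gave 68 (29 and 39), with no filter 76 (34 and 42), without library 24 27 (13 and 14), with library set as a covariate 74 (32 and 42), and with animal number 0 (0 and 0). The length slope as a covariate gave 2 (2 and 0). Libraries ranked again on corrected Mki67 gave 451 (250 and 201). The sets of libraries hold fewer libraries than the whole; for the other settings the cause was not tested.

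Depth limits the ranking: the highest and the lowest Mki67 libraries rest on 64 and 7 reads, and the Poisson intervals of libraries near the borders cross them. Several mitosis genes have a median under 10 reads in the low libraries (Cdc20 7, Tpx2 5.5).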

Other observations

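After the correction for transcript length, 6 genes were called that were not called as deposited, named here after their values were seen: Cox6b2, Smim20, Gyg, Fech, Hbb-bs and Naa16. Of these Cox6b2 differed by 0.55 (adjusted p 0.0297), Hbb-bs by 0.74 (adjusted p 0.0442) and Fech by -0.17 (adjusted p 0.0411) after the correction.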
